A study of Mus musculus with 8 samples.

Results

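Mesothelial marker genes were followed across sorted adipose-derived stem cells of white fat. The 10 genes, taken from the count table by symbol, were Msln, Upk3b, Upk1b, Gpm6a, Muc16, Krt8, Krt18, Krt19, Ezr and Bnc1. All 10 were found among 17967 gene symbols. The cells came from epididymal fat (EWAT), perirenal fat (NWAT) and inguinal subcutaneous fat (SWAT) of male C57BL/6J wild-type mice fed chow, and each of these 3 depots is represented by 2 bulk RNA sequencing libraries. All groups share strain, sex, diet and the collagenase digestion and flow sorting. The labels do not state the antigens of the sorting gate, the age of the mice or whether replicates came from separate animals. The p-values therefore set depot differences only against the spread of these libraries within depots, and that spread may be technical. Mesenteric fat (MWAT) is not analysed here.

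Mesothelium is the flat epithelium that lines the peritoneal cavity and covers organs and fat depots that lie in it, whereas subcutaneous fat lies outside that lining. Whether the perirenal fat taken here bore any of that lining is not known. Mesothelial cells carry the surface glycoproteins mesothelin and mucin 16, uroplakins and simple epithelial keratins, and bear microvilli that are anchored to actin by ezrin. They share an origin in the embryonic coelomic lining with mesenchyme that expresses the transcription factor Wt1, and digestion of visceral fat can release them together with fibroblast-like progenitors. Adipose-derived stem cells themselves are recognised by genes such as Pdgfra and Cd34.

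Library totals lay between 20026413 and 20638724 estimated counts. Genes of adipose progenitors were abundant. In EWAT, NWAT and SWAT, Pdgfra averaged 1050, 1430 and 1200 CPM (counts scaled to library size with TMM factors), and Cd34 averaged 1270, 1650 and 1420 CPM in the same order. Of 8 progenitor genes, all tested, 1 was higher and 5 lower in EWAT than in SWAT (median -0.80 on the log2 scale; Dcn higher, and Col1a1, Pi16, Icam1, Dpp4 and Ly6a lower), 2 higher and 2 lower in NWAT than in SWAT (median 0.17), and 1 higher and 5 lower in EWAT than in NWAT (median -0.45). Among all genes tested, 18.7% were higher and 18% lower in the first pair, 9.83% and 9.07% in the second and 13.3% and 14% in the third. Medians over all genes were 0.009, 0.015 and 0.011. The mesothelial markers were scarce. All 10 together took 0.0046% and 0.00489% of the counts in EWAT, 0.00381% and 0.00362% in NWAT and 0.000798% and 0.000804% in SWAT.

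The 10 genes did not behave as a block. Ezr supplied most of their counts, with 80.9% and 80% in EWAT, 64.8% and 66.5% in NWAT and 63.2% and 60.8% in SWAT. Krt19 was the next gene in NWAT and SWAT. The other 8 members together had 166 and 183.13 counts in EWAT, 136 and 115 in NWAT and 2 and 6 in SWAT, and in the SWAT libraries 7 and 4 of these 8 genes were listed at 0. Their summed level was 7.99 CPM ± 0.337 in EWAT, 6.03 CPM ± 0.643 in NWAT and 0.213 CPM ± 0.146 in SWAT (SD, n = 2). EWAT and NWAT were therefore well above SWAT in both replicates. In bulk RNA, fewer cells of a type and less RNA per cell cannot be told apart.

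**Figure D1:**
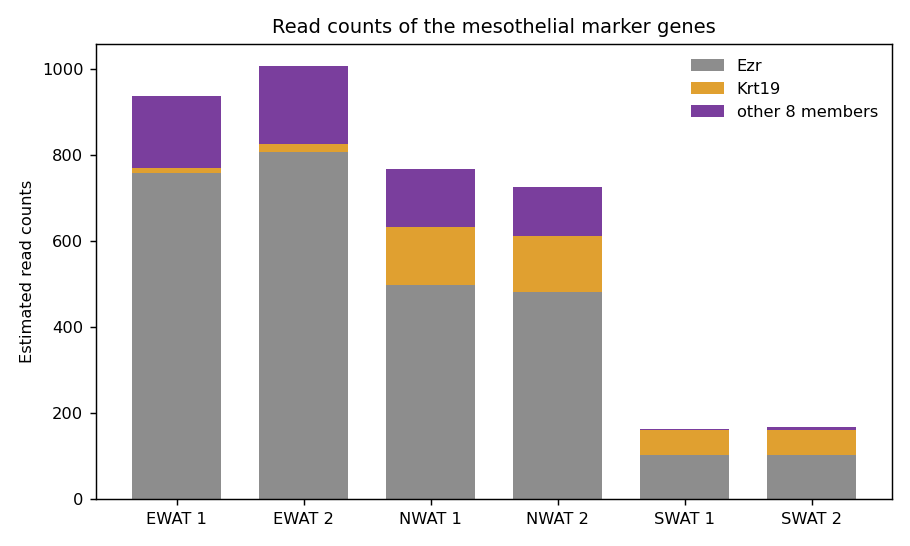
Estimated read counts (vertical axis) of Ezr, Krt19 and the other 8 mesothelial marker genes, stacked for each of the 6 libraries. The other 8 genes hold 115 to 183.13 counts in the EWAT and NWAT libraries and 2 and 6 in the SWAT libraries.

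The genes lie on 8 chromosomes of GRCm38.p6 and are annotated as protein-coding. Msln lies on chromosome 17 from 25748613 to 25754378, Ezr on chromosome 17 from 6738131 to 6782780, Upk3b on chromosome 5 from 136038496 to 136044993 and Upk1b on chromosome 16 from 38773182 to 38800203. Gpm6a lies on chromosome 8 from 54779434 to 55060878, Muc16 on chromosome 9 from 18495445 to 18674821 and Bnc1 on chromosome 7 from 81966657 to 81992299. The keratin genes Krt8 (101996711 to 102004342) and Krt18 (102028216 to 102032026) are neighbours on chromosome 15, 23873 bases apart and transcribed away from each other, and Krt19 lies on chromosome 11 from 100140810 to 100145926. The annotated bounds of Gpm6a overlap those of Wdr17 on the opposite strand, those of Muc16 overlap Gm25295, those of Krt8 overlap Gm36026 and those of Bnc1 overlap the pseudogene 4833418N17Rik. Overlap of their exons was not examined, and no label says whether counting used strand. Whether any reads were assigned to the wrong gene of such a pair is therefore not known.

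Start-site sequences are shown for Upk3b, Gpm6a and Ezr, members with far fewer counts in SWAT, to set the scarce surface markers beside the abundant ezrin gene. Each runs from 250 bases before to 50 after a start site, from RefSeq on GRCm38.p6, and RefSeq entries matched 7 of the 10 members. Capitals mark a match, on either strand, to any of 6 searched motifs.
Upk3b, chr5:136038246-136038545, plus strand: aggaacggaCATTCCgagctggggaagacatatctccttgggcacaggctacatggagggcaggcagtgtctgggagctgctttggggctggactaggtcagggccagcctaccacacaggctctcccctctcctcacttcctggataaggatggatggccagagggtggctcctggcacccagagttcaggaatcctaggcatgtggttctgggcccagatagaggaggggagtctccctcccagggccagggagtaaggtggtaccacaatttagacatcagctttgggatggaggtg
Gpm6a, chr8:54779184-54779483, plus strand: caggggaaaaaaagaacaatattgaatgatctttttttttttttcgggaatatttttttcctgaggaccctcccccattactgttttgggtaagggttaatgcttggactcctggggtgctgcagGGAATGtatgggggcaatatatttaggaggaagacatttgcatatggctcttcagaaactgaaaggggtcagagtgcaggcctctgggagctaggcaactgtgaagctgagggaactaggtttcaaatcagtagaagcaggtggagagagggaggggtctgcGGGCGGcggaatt
Ezr, chr17:6782731-6783030, minus strand: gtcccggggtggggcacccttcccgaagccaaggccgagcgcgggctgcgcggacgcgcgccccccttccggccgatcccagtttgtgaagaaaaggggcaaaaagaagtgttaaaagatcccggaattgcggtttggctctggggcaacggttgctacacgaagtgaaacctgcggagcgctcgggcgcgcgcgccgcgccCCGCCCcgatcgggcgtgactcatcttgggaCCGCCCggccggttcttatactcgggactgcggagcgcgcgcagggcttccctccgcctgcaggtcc
Of 32851 RefSeq windows of this length, 13.6% hold the first motif, TATAAA, known as the TATA box. The sequence CCAAT, which nuclear factor Y binds, is in 37.4% of them. The GC box of Sp factors, searched as GGGCGG, is in 35.7%. The motif of TEAD factors, searched as GGAATG, is in 14.7%. A GATA factor motif, AGATAA, is in 11.2%. Finally, the motif shared by WT1 and EGR factors, GCGTGGG, is in 5.04%. None of the 6 contains another. In Upk3b the capitals are a TEAD motif at positions -241 to -236 from the start site. Gpm6a has a TEAD motif at -125 to -120 and a GC box at 38 to 43, and its second annotated start, not printed, has a TATA box. The Ezr window has 2 GC boxes, at -48 to -43 and -17 to -12, and a GC content of 68%. Set against the shares of all windows, none of these matches is rare. The Bnc1 window, with a GC content of 83.3%, holds 6 GC boxes, the Krt8 window holds a GATA motif and 2 TATA boxes that overlap each other, and the windows of Muc16 and Krt18 hold none of the 6.

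The mesothelin gene Msln and the mucin gene Muc16 code for cell-surface glycoproteins that, in human, bind each other. Msln had 27 and 29 counts in EWAT, 19 and 13 in NWAT and 0 and 1 in SWAT, or 1.28 CPM ± 0.0298, 0.769 CPM ± 0.195 and 0.0264 CPM ± 0.0373 (SD, n = 2). Both EWAT libraries lay above both NWAT libraries, and these above both SWAT libraries. By edgeR's quasi-likelihood test, with Benjamini-Hochberg adjustment over 13694 genes and a threshold of 0.05 for every call, Msln was higher in EWAT than in SWAT (adjusted p = 2.65e-04) and in NWAT than in SWAT (adjusted p = 0.00263). Msln, Upk3b, Upk1b, Gpm6a and Muc16 passed the count filter only through EWAT and NWAT. Their p-values against SWAT, here and below, are therefore no independent support for a difference. With no filter, Msln had edgeR adjusted p = 3.18e-05 and 7.65e-04 in these 2 pairs. With 1 count in SWAT, the ratios of 47.7 (95% counting interval 8.22 to 1920) and 28.6 (4.78 to 1170) are poorly bounded above. EWAT over NWAT missed the threshold at a log2 fold change of 0.73 ± 0.41 (SE; edgeR adjusted p = 0.208). Counting intervals cover counting error only. Folds given below as at least a value rest on a floor for depots at 0 counts. They take the counts of the higher depot as observed, without their counting error.

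Muc16 had 17 and 8 counts in EWAT, 21 and 19 in NWAT and 0 and 0 in SWAT. The order of EWAT and NWAT was thus the other way round than for Msln, with both EWAT libraries below both NWAT libraries. Against a floor of 3 counts per SWAT library, the Muc16 level in EWAT was at least 3.55-fold higher, and that in NWAT at least 5.96-fold higher, with edgeR adjusted p = 0.0035 and 0.00167. EWAT over NWAT had a log2 fold change of -0.74 ± 0.49 (SE; edgeR adjusted p = 0.292), past no threshold. On the FPKM table, where its values are listed to 2 decimals and reach 0.04, limma called Muc16 in neither comparison with SWAT (adjusted p = 0.734 and 0.518 on log2 (FPKM + 1) values).

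Upk3b and Upk1b belong to the uroplakins, membrane proteins best known from the bladder lining, and Upk1b is a tetraspanin. Upk3b was the most abundant of the 8 scarce members, with 78 and 70 counts in EWAT, 46 and 38 in NWAT and 2 and 2 in SWAT. Its level was 3.39 CPM ± 0.352 in EWAT, 2.02 CPM ± 0.248 in NWAT and 0.108 CPM ± 0.00297 in SWAT (SD, n = 2), and the 3 depots did not overlap. It was higher by 4.90 ± 0.43 on the log2 scale in EWAT than in SWAT (SE; edgeR adjusted p = 4.57e-06) and by 4.16 ± 0.46 in NWAT than in SWAT (adjusted p = 6.11e-05). The EWAT over NWAT difference of 0.75 ± 0.26 stood at the threshold (edgeR adjusted p = 0.0533) and passed it when counts were scaled by library totals only (0.0436) and in limma on log2 (FPKM + 1) values (0.0106) and log2 (FPKM + 0.1) values (0.0383), within a range of 0.0106 to 0.242 over 15 alternatives.

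Upk1b had 13 and 19 counts in EWAT, 15 and 9 in NWAT and 0 and 0 in SWAT. EWAT and NWAT overlapped, and each lay above SWAT, by at least 4.54-fold in EWAT and at least 3.58-fold in NWAT (edgeR adjusted p = 0.00153 and 0.00512). Among the other uroplakin genes, Upk1a, the tetraspanin relative of Upk1b, had 6 and 13 counts in EWAT, 13 and 13 in NWAT and 4 and 3 in SWAT and passed no pairwise test (edgeR adjusted p = 0.186, 0.0849 and 0.493 for EWAT over SWAT, NWAT over SWAT and EWAT over NWAT). Upk2, Upk3a and Upk3bl had too few counts to be tested, from 0 to 5 in a library.

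Gpm6a codes for a proteolipid-family membrane glycoprotein known from neurons and also used as a mesothelial marker. It had 15 and 34 counts in EWAT, 19 and 24 in NWAT and 0 and 0 in SWAT. The EWAT replicates differed more than the NWAT replicates did, and enclosed them. Over SWAT, its level in EWAT was at least 6.95-fold higher and that in NWAT at least 6.41-fold higher (edgeR adjusted p = 7.49e-04 and 0.00167). EWAT over NWAT was 0.11 ± 0.45 on the log2 scale (edgeR adjusted p = 0.881), and its sign turned without EWAT replicate 2 (-0.56) and without NWAT replicate 1 (-0.06).

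Its relative Gpm6b was far more abundant, at 46.6 FPKM ± 0.198 in EWAT, 23.9 ± 0.863 in NWAT and 16.6 ± 0.283 in SWAT (SD, n = 2), against 0.405, 0.36 and 0 FPKM for Gpm6a. FPKM divides counts by gene length and library size, so that genes can be set against each other. Gpm6b too was higher in EWAT and NWAT than in SWAT, by 1.29 ± 0.10 and 0.38 ± 0.10 on the log2 scale (edgeR adjusted p = 1.5e-06 and 0.0192). Since Gpm6a is known from neurons, neuron and glia genes are given beside it. The neuronal tubulin gene Tubb3 had 9.15 and 10.3 CPM in EWAT, 5.87 and 7.72 in NWAT and 6.85 and 6.22 in SWAT and was higher in EWAT than in SWAT (0.58 ± 0.17, edgeR adjusted p = 0.0223). The glial gene S100b was lower in EWAT and NWAT than in SWAT (-1.41 ± 0.21 and -1.77 ± 0.22, adjusted p = 3.12e-04 and 1.37e-04), at 3.27 and 3.73 CPM in EWAT, 2.39 and 3.06 in NWAT and 8.06 and 10.5 in SWAT. The neuron genes Snap25 and Elavl3 did not pass the filter, with 1.53 to 4.33 and 2.95 to 14.42 counts in a library. The part of neurons and glia in the Gpm6a values was not tested.

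**Figure D2:**
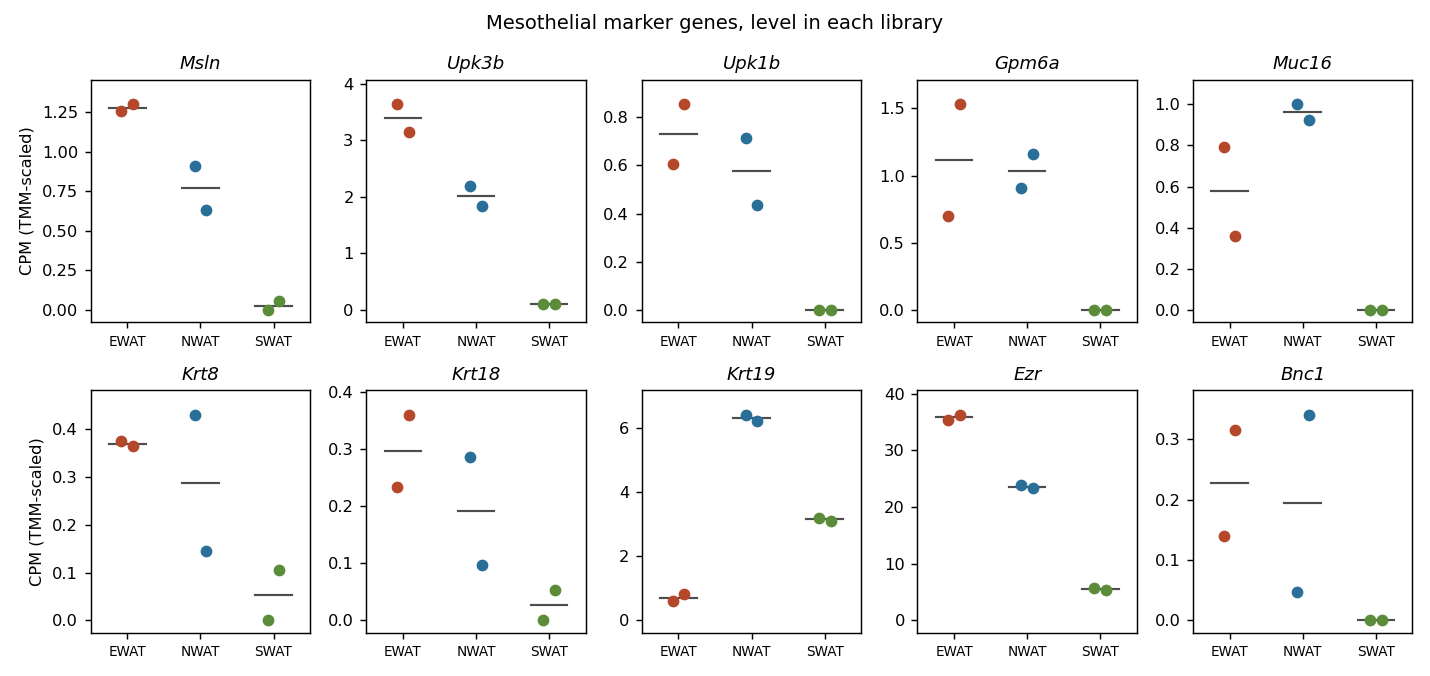
TMM-scaled CPM (vertical axes, scaled per gene) of each mesothelial marker gene in the EWAT, NWAT and SWAT libraries, with points for libraries and lines for depot means of 2. Krt19 alone among the 10 has its lowest values in EWAT, and Upk1b, Gpm6a, Muc16 and Bnc1 are at 0 in both SWAT libraries.

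Keratins are paired filament proteins of epithelia, and Krt8 (type II) and Krt18 (type I) are the usual pair of simple epithelia. Krt8 had 8 and 8.13 counts in EWAT, 9 and 3 in NWAT and 0 and 2 in SWAT. Krt18 had 5 and 8 counts in EWAT, 6 and 2 in NWAT and 0 and 1 in SWAT. The genes ran in parallel, and Krt8 made up 55.2% of the pair's counts in EWAT (95% exact binomial interval 35.7 to 73.6) and 60% in NWAT (36.1 to 80.9). Neither passed the count filter. In the fit with no filter neither was called in any pair, with edgeR adjusted p = 0.0762 and 0.0707 for EWAT over SWAT.

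Krt19, a type I keratin of simple epithelia and some progenitor cells, followed another order. It had 13 and 18 counts in EWAT, 134 and 128 in NWAT and 58 and 59 in SWAT, or 0.708 CPM ± 0.143, 6.30 CPM ± 0.129 and 3.15 CPM ± 0.0487 (SD, n = 2). The depots were well apart, with NWAT highest and EWAT lowest. Krt19 was lower in EWAT than in SWAT by -2.14 ± 0.27 on the log2 scale (edgeR adjusted p = 9.41e-05) and lower in EWAT than in NWAT by -3.14 ± 0.26 (adjusted p = 4.38e-06), and higher in NWAT than in SWAT by 1.00 ± 0.21 (adjusted p = 0.00626). The last call was just lost without SWAT replicate 2 (0.98, edgeR adjusted p = 0.0506), within a range of 0.00214 to 0.0506 over 15 alternatives. Relative to Krt8, its FPKM was 2.55 times as high in EWAT, 30.1 times in NWAT and 92.4 times in SWAT, the last resting on 2 Krt8 counts.

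Of the other tested keratins, Krt20, Krt80 and Krt23 shared the low level in EWAT, and Krt7 did not. Krt20, a type I keratin of gut and urothelium that lies 702656 bases from Krt19 on chromosome 11, had 31 and 41 counts in EWAT, 231 and 262 in NWAT and 134 and 86 in SWAT. It was lower in EWAT than in SWAT (-1.84 ± 0.26, edgeR adjusted p = 2.47e-04) and in EWAT than in NWAT (-2.84 ± 0.25, adjusted p = 9.05e-06), and higher in NWAT than in SWAT (1.00 ± 0.22, adjusted p = 0.00741). Krt80, a type II keratin, stood at 1.85 FPKM ± 0.099 in EWAT, 8.68 ± 0.0778 in NWAT and 11.8 ± 2.9 in SWAT (SD, n = 2) and was lower in EWAT in both comparisons (edgeR adjusted p = 6.66e-07 against SWAT and 9.88e-06 against NWAT). Krt23 had 1 and 1 counts in EWAT, 21 and 19 in NWAT and 29 and 12 in SWAT. Krt23 passed the count filter only through NWAT and SWAT, so its lower call in EWAT, counted below, is no independent support for a difference. Krt7, a simple epithelial keratin, had 3 and 9 counts in EWAT, 16 and 10 in NWAT and 2 and 4 in SWAT and passed no pairwise test. Of the 5 keratin genes tested, Krt19 included, 4 were lower and 0 higher in EWAT than in SWAT, beside 18% of all genes lower and 18.7% higher, where Krt7 was the fifth (adjusted p = 0.503). Their median log2 fold change was -2.14, beside 0.009 over all genes.

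**Figure D3:**
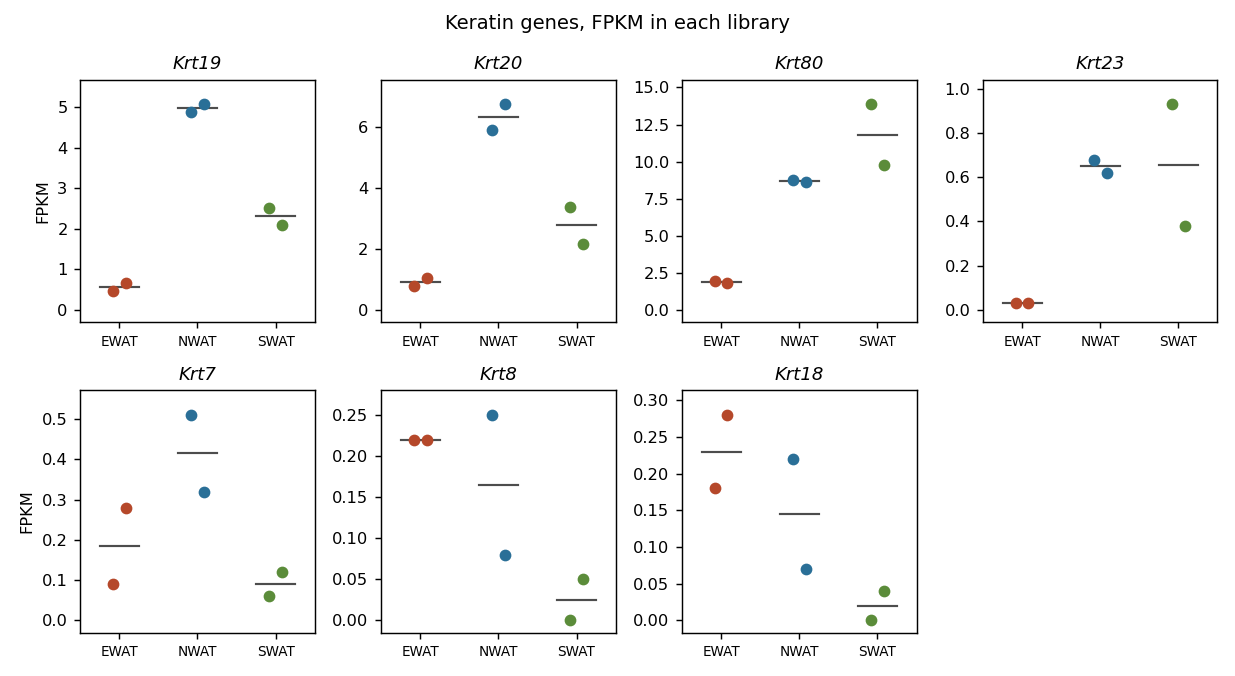
FPKM (vertical axes, scaled per gene) of 7 keratin genes in the EWAT, NWAT and SWAT libraries, with points for libraries and lines for depot means of 2. Krt19, Krt20, Krt80 and Krt23 are lowest in EWAT, whereas Krt8 and Krt18 have their highest depot means in EWAT.

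Over the 6 libraries, log2 CPM of Krt19 had a Pearson r of 0.992 with Pi16 and 0.989 with Dpp4, markers of interstitial adipose progenitors, of 0.984 with Krt20 and of 0.851 with Krt80, but of -0.407 with Ezr and -0.343 with Upk3b. These genes were set beside Krt19 after its values were seen, the points are 3 depots in pairs that share their libraries, and the values are a description. The EWAT, NWAT and SWAT means of Pi16 were 592, 3360 and 1930 CPM, and those of Dpp4 were 232, 691 and 490 CPM.

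Ezrin, the product of Ezr, links the actin cortex to the plasma membrane. Ezr had 757 and 806 counts in EWAT, 498 and 481.99 in NWAT and 103 and 101 in SWAT, or 35.8 CPM ± 0.609, 23.6 CPM ± 0.265 and 5.49 CPM ± 0.227 (SD, n = 2). The replicates were close and the depots far apart. Ezr was higher by 2.70 ± 0.12 on the log2 scale in EWAT than in SWAT (SE; edgeR adjusted p = 1.6e-08), by 2.10 ± 0.12 in NWAT than in SWAT (adjusted p = 4.97e-07) and by 0.60 ± 0.10 in EWAT than in NWAT (adjusted p = 0.00116). It was the most abundant member per length in EWAT and NWAT, with 12.4 and 7.93 FPKM, while in SWAT its 1.61 FPKM lay below the 2.31 FPKM of Krt19.

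The related linkers moesin (Msn) and radixin (Rdx) were more abundant than ezrin in all 3 depots. Msn stood at 102 FPKM ± 1.59 in EWAT, 96.8 ± 0.721 in NWAT and 71.5 ± 1.67 in SWAT, and Rdx at 35.8 ± 1.1, 37.9 ± 0.368 and 33.2 ± 0.198 (SD, n = 2). Msn thus exceeded Ezr 8.23-fold in EWAT, 12.2-fold in NWAT and 44.4-fold in SWAT. In no pair of depots did Msn (edgeR adjusted p = 0.0601, 0.133 and 0.868 for EWAT over SWAT, NWAT over SWAT and EWAT over NWAT) or Rdx (0.32, 0.981 and 0.329) pass the test. The ezrin-binding adaptor gene Slc9a3r1 was higher in EWAT and NWAT than in SWAT (0.57 ± 0.15 and 0.68 ± 0.15, edgeR adjusted p = 0.0113 and 0.00706), and Slc9a3r2 was higher in EWAT than in SWAT and NWAT (0.66 ± 0.13 and 0.78 ± 0.13, adjusted p = 0.00233 and 0.00104). Nf2 (merlin), Cd44 and Podxl passed no pairwise test. In the list of 8 linkers and partners, all tested, 3 were higher in EWAT than in SWAT, 2 in NWAT than in SWAT and 2 in EWAT than in NWAT, Ezr among them each time, and 0 were lower. The shares of all genes called higher were 18.7%, 9.83% and 13.3%, and without Ezr 2, 1 and 1 of 7 list genes were higher. The list's medians were 0.29, 0.23 and 0.02, beside 0.009, 0.015 and 0.011 over all genes.

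Bnc1 codes for basonuclin 1, a zinc finger protein of stratified epithelia and mesothelium. It had 3 and 7 counts in EWAT, 1 and 7 in NWAT and 0 and 0 in SWAT, and did not pass the count filter. EWAT and NWAT overlapped, and its fold over SWAT was at least 1.42 in EWAT and at least 1.19 in NWAT, on counts summed over each depot. The NWAT bound rests on replicate 2, since NWAT replicate 1 had 1 count, under the floor of 3, and EWAT replicate 1 stood at the floor with 3 counts. Without the filter its edgeR adjusted p was 0.0589 and 0.129. The paralogue Bnc2 stood at 3.67 FPKM ± 0.488 in EWAT, 3.60 ± 0.127 in NWAT and 4.37 ± 0.757 in SWAT (SD, n = 2), against 0.05, 0.04 and 0 FPKM for Bnc1, and was lower in EWAT and NWAT than in SWAT (-0.43 ± 0.12 and -0.48 ± 0.12, edgeR adjusted p = 0.0162 and 0.0158).

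**Figure D4:**
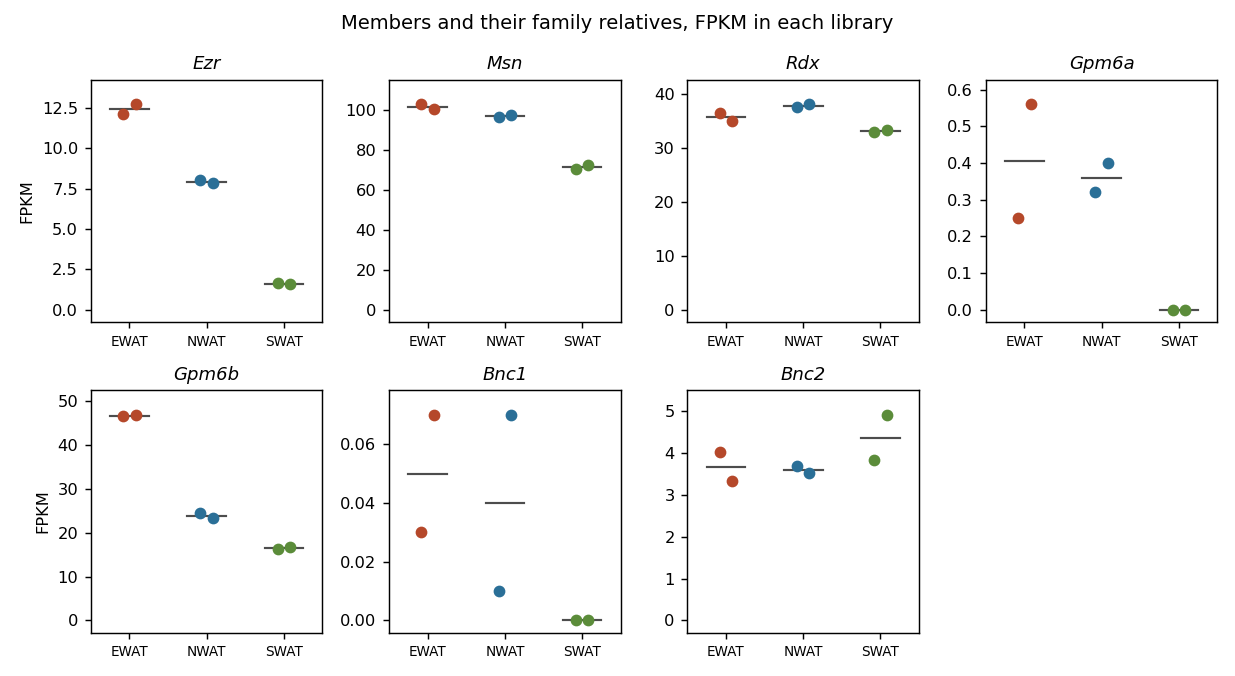
FPKM (vertical axes, scaled per gene) of Ezr, Gpm6a and Bnc1 beside their family relatives Msn, Rdx, Gpm6b and Bnc2 in the EWAT, NWAT and SWAT libraries, with points for libraries and lines for depot means of 2. The relatives are the more abundant genes, with Msn at 71.5 to 102 FPKM and Ezr at 1.61 to 12.4 FPKM as depot means.

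Counted over the members, 7 of 10 passed the filter. In EWAT against SWAT, 6 were called higher and 1, Krt19, lower, beside 18.7% of all genes higher and 18% lower (36.7% in all). In NWAT against SWAT 7 were called higher and 0 lower, beside 9.83% of genes higher and 9.07% lower. The joint test over the 3 depots called 7 members, beside 41.7% of genes. Msln, Upk3b, Upk1b, Gpm6a and Muc16 passed the filter only through their EWAT and NWAT counts, so these 5 had to differ from SWAT to be tested at all. With no filter, all 10 entered the fit and the calls were again 6 and 1 in EWAT, beside 14.5% of genes higher and 14.4% lower, and 7 and 0 in NWAT, beside 7.66% of genes higher and 7.38% lower. Both EWAT libraries lay above both SWAT libraries for 9 of 10 members (31.1% of genes with a count) and below them for 1, Krt19 (30%), while both NWAT libraries lay above both SWAT libraries for 10 of 10 (28.2%). The comparisons with SWAT share its 2 libraries. Another scaling moved the share of all calls that were higher. Scaled by library totals only, 79.1% of calls in EWAT over SWAT and 81.1% in NWAT over SWAT were higher, against 50.9% and 52% with TMM, and the median log2 fold change of all genes was then 0.245 and 0.206. All 7 tested members kept their call and direction against SWAT under that scaling.

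Between EWAT and NWAT, 2 of the 7 tested members were called. Ezr was called higher and Krt19 lower in EWAT, 1 gene each way of 7 tested, beside 13.3% of tested genes higher and 14% lower (27.3% in all). Both EWAT libraries lay above both NWAT libraries for 3 members, Msln, Upk3b and Ezr (28.3% of genes), and below for 2, Muc16 and Krt19 (29%). The ratios of summed counts ran from 0.113 (95% counting interval 0.075 to 0.164) for Krt19 and 0.595 (0.346 to 1) for Muc16 to 1.67 (1.06 to 2.66) for Msln and 1.68 (1.27 to 2.22) for Upk3b. For Upk1b, Gpm6a, Krt8, Krt18 and Bnc1 the intervals held 1 and were wide, with bounds from 0.423 to 4.31, so differences within them were not detectable at this depth.

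**Figure D5:**
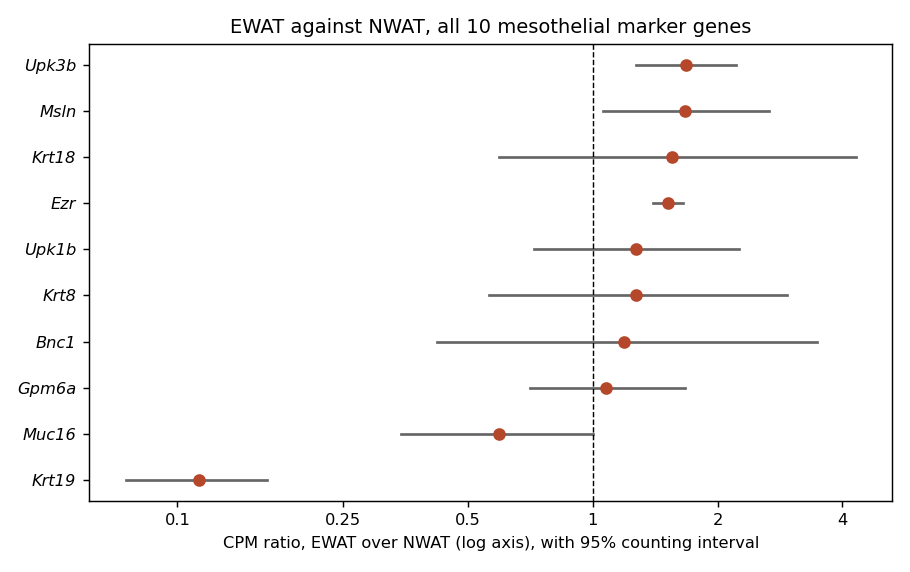
CPM ratio of EWAT over NWAT for each of the 10 mesothelial marker genes (horizontal log axis), with bars for the 95% counting interval from the summed counts of 2 libraries per depot. Krt19 lies at 0.113, Ezr, Msln and Upk3b lie above 1 with their intervals, and the rest have intervals that reach 1.

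A list of 20 further genes expressed in mesothelium gave a mixed picture. Of these, 15 were tested, and 8 were higher and 1 lower in EWAT than in SWAT, 6 higher and 0 lower in NWAT than in SWAT, and 4 higher and 1 lower in EWAT than in NWAT. Over all genes, 18.7% were higher and 18% lower in the first pair, 9.83% and 9.07% in the second and 13.3% and 14% in the third. The medians were 0.83, 0.64 and 0.37 on the log2 scale, beside 0.009, 0.015 and 0.011 for all genes. The most abundant were Efemp1, a matrix fibulin that fibroblasts express, Pdpn (podoplanin, also expressed by fibroblasts), Ildr2 and Wt1. Efemp1 passed no pairwise test, at 654 FPKM in EWAT, 588 in NWAT and 447 in SWAT. Pdpn was higher in EWAT and NWAT than in SWAT by 0.76 ± 0.10 and 0.55 ± 0.10 (edgeR adjusted p = 1.61e-04 and 0.00292). Ildr2 was higher in NWAT than in SWAT by 1.17 ± 0.12 (adjusted p = 4.35e-05). Wt1 stood at 53.8 FPKM in EWAT and 40.3 in NWAT and was listed at 0 in SWAT, so in EWAT and NWAT its FPKM was 82.8 and 106 times that of Msln. The mesothelial calcium-binding protein gene Calb2 and the myosin light chain gene Myl7 were at 0 in all 6 libraries. Among scarcer list genes, Pkhd1l1 had 53, 50 and 1 counts over the EWAT, NWAT and SWAT libraries. Slpi had 61, 39 and 1. By edgeR both were higher in EWAT (adjusted p = 3.69e-04 and 7.87e-04) and in NWAT (7.36e-04 and 0.00462) than in SWAT. Both passed the count filter only through EWAT and NWAT, as did Wt1 and Nkain4. The counts of list genes called against SWAT include such genes, so they are no independent support for a difference. Cldn15 was the list gene lower in EWAT than in SWAT, by -0.46 ± 0.15 (edgeR adjusted p = 0.0377).

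Markers of other cells were read beside the members, whose 8 scarce genes summed to 7.99, 6.03 and 0.213 CPM in EWAT, NWAT and SWAT. The 16 markers of other epithelia, 15 of them in the table, summed to 2.61 to 2.74 CPM in EWAT, 4.14 to 7.65 in NWAT and 5.87 to 6 in SWAT. The epithelial adhesion genes Epcam and Cdh1 were at 0 in both EWAT libraries, and Epcam had 1 count over the NWAT libraries and 1 over the SWAT libraries. The tested ones were Cldn3, which was lower in EWAT than in SWAT (-1.66 ± 0.29, edgeR adjusted p = 0.00108) and than in NWAT (-1.13 ± 0.30, adjusted p = 0.016), and Krt7. Kidney tubule markers, 6 of 9 in the table, summed to 2.1 to 2.43 CPM in EWAT, 0.337 to 0.397 in NWAT and 0.686 to 1.08 in SWAT. Epididymal markers, 3 of 9 in the table, summed to 0.18 to 0.28 CPM in EWAT, 0 in NWAT and 0.0527 to 0.0548 in SWAT, and gut and pancreas markers, 6 of 9 in the table, to 0.723 to 0.981, 1.43 to 1.6 and 1.48 to 1.69 CPM in EWAT, NWAT and SWAT. Leukocyte markers, with 0 of 7 at 0, summed to 23.7 to 26.7 CPM in EWAT, 16.5 to 17 in NWAT and 9.96 to 19.7 in SWAT, above the scarce members in every depot. Of 5 tested, 3 were higher in EWAT than in SWAT, beside 18.7% of all genes, with a median of 1.58 on the log2 scale. They were the macrophage lysozyme gene Lyz2 (2.26 ± 0.30, edgeR adjusted p = 1.45e-04), the pan-leukocyte gene Ptprc (1.63 ± 0.50, adjusted p = 0.0245) and the macrophage gene Adgre1 (1.58 ± 0.54, adjusted p = 0.0393), while Cd68, the most abundant, was not called (adjusted p = 0.451). Ptprc and Adgre1 passed the count filter only through EWAT, and the median is the value of Adgre1. Calls of these genes, here and below, are therefore no independent support for a difference. In NWAT over SWAT 0 of 5 were called by edgeR, beside 9.83% of genes higher and 9.07% lower, and 0 had an unadjusted p under 0.05. In EWAT over NWAT 2 were higher, Lyz2 and Adgre1, beside 13.3% of all genes higher and 14% lower. Endothelial markers summed to 14.9 to 22.1, 12.2 to 12.3 and 21.3 to 21.4 CPM in EWAT, NWAT and SWAT, with 0 of 6 at 0. Their part in the members' differences was not tested.

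Across libraries, each tested member except Krt19 had a Pearson r of 0.945 to 0.974 with the mean of the other tested members, and Krt19 had -0.266. The non-member genes whose log2 CPM was most like the members' mean over the 6 libraries, among 10530 candidates, were Pon3 (r = 0.9997), Foxc1 (0.9991), Dhx32 (0.9987), Tfpi (0.9982), Fgf1 (0.9978) and Lrrn2 (0.9976). The size of the change differed among them. EWAT, NWAT and SWAT means were 21.3, 26.3 and 1.91 CPM for Foxc1. Fgf1 stood at 50.8, 59.4 and 4.22 CPM and Lrrn2 at 39.6, 47.8 and 1.96 CPM, whereas Pon3 stood at 25.8, 26.2 and 19.4 CPM. The points again are 3 depots with 2 libraries each, and the values are a description.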

How the data were processed

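Bulk RNA sequencing of flow-sorted cells was read from the authors' 2 deposited tables of 17967 symbols. One holds estimated counts, named read counts per the file headers, not normalized, with 35.4% to 36.9% of values above 0 not whole. The other holds FPKM values per the file headers, a unit scaled by gene length and library size. The submitters' processing notes list GRCm38.p6, Seurat and Cell Ranger with no role. The aligner, counter and annotation: not given in the sources used here. Of the sample columns, 4 (a pair in each file) matched no label and were not used, so the planned mesenteric comparisons were not run.

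Counts were rounded, filtered with filterByExpr (count minimum 10, total minimum 15; 13694 genes) and scaled by TMM in edgeR 4.0.16 on R 4.3.3. All 6 libraries entered a quasi-likelihood fit by depot (3 residual degrees of freedom), from which pairs of depots were contrasted. Totals of 20026413 to 20638724 counts make 3 counts, the floor per library for genes at 0, equal to 0.135 to 0.164 CPM. SE is the absolute log2 fold change over the square root of F. A repeated symbol (1 case) was read from its larger entry. Alternatives used DESeq2 1.42.0, limma 3.58.1 on log2 FPKM, other filters and scalings, a replicate block and leaving out each library. The test script was tested on simulated data. Members, lists and tests were chosen with earlier results of these data known. All members were named, family relatives where tested, otherwise up to 4 tested genes of highest mean CPM in a list, and the 6 candidates (mean log2 CPM at least 2) of highest Pearson r. Single genes outside these rules were chosen after their values were seen. A few genes of the lists are not reported here, nor is the sum of 1 list that holds them.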

Additional observations from a re-analysis of the deposited data

How the results depend on the processing

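The number of members called was 7 in EWAT over SWAT (5 to 7 over the alternatives), 7 in NWAT over SWAT (5 to 7) and 2 in EWAT over NWAT. With limma on log2 (FPKM + 1) values the last was 4, as Upk3b and Msln (0.26, adjusted p = 0.0472) passed. It also rose with counts scaled by library totals only and in limma on log2 (FPKM + 0.1) values, where Upk3b passed. The stricter filter tested fewer members. Leaving out each library in turn gave 7, 6 to 7 and 2 to 2 member calls, while calls over all genes ran from 3085 to 5672 in EWAT over SWAT (5020 with all libraries), 1467 to 3323 in NWAT over SWAT (2588) and 2129 to 4884 in EWAT over NWAT (3743), and scaling by library totals gave 3946 in NWAT over SWAT. The lowest counts came without SWAT replicate 2, SWAT replicate 2 and NWAT replicate 1, in that order of pairs. Over 309 values of single members, 298 kept their direction and side of the threshold, 5 lost the call, 4 gained it and 2 reversed (Gpm6a in EWAT over NWAT, at -0.56 without EWAT replicate 2 and -0.06 without NWAT replicate 1, within -0.56 to 0.56 over the left-out libraries; the cause was not tested). With a replicate block, calls numbered 5043, 2595 and 3793 and no member's call changed; deviations of same-numbered libraries correlated at 0.11, 0.001 and 0.038, so the numbers were not taken as pairs. Low counts limit Krt8, Krt18 and Bnc1, which had at most 9 counts in a library.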

Other observations

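Genes of the transition of mesothelial cells to mesenchyme were all tested, with calls in both directions. Of the 8 genes, 2 were higher and 3 lower in EWAT than in SWAT, with a median of -0.01 on the log2 scale, and 1 was higher and 3 lower in NWAT than in SWAT, with a median of -0.375, beside 0.009 and 0.015 over all genes. In EWAT over NWAT 3 were higher and 2 lower, with a median of 0.13 beside 0.011, and the higher ones were Acta2 (2.56 ± 0.44, edgeR adjusted p = 0.00219), Snai1 (1.13 ± 0.15, adjusted p = 2.19e-04) and Vim (0.41 ± 0.12, adjusted p = 0.0244). The lower ones were Twist1 (-0.76 ± 0.099, edgeR adjusted p = 1.68e-04) and Cdh2 (-0.729 ± 0.185, adjusted p = 0.013). Acta2 stood at 4.92 and 9.28 CPM in the EWAT libraries and 1.63 and 0.761 in the NWAT libraries. The shares of all genes called higher and lower were 18.7% and 18%, 9.83% and 9.07%, and 13.3% and 14% in the 3 pairs. Snai2, a zinc finger repressor of epithelial genes, was lower in EWAT and NWAT than in SWAT by -0.98 ± 0.17 and -1.34 ± 0.18 (edgeR adjusted p = 0.0011 and 2.7e-04). Twist1, a basic helix-loop-helix factor of mesenchyme, was lower too, by -1.20 ± 0.10 and -0.44 ± 0.10 (adjusted p = 2.88e-06 and 0.00814). Zeb1 was higher in both, by 0.63 ± 0.12 and 0.77 ± 0.12 (adjusted p = 0.00193 and 9.16e-04). Vim, the intermediate filament gene vimentin, stood at 1550 FPKM in EWAT, 1130 in NWAT and 1220 in SWAT, far above every keratin measured.

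Nkain4 and Aldh1a2, both used as mesothelial genes, set EWAT apart from NWAT where most members did not. Nkain4 had 227 and 409 counts in EWAT, 15 and 13 in NWAT and 2 and 7 in SWAT and was higher in EWAT than in NWAT by 4.42 ± 0.36 on the log2 scale (edgeR adjusted p = 9.08e-06), and Aldh1a2, which makes retinoic acid, by 3.42 ± 0.23 (adjusted p = 2.16e-06). The water channel gene Aqp2, known from the kidney collecting duct, had 70 counts over the EWAT libraries, 1 over the NWAT libraries and 28 over the SWAT libraries and was higher in EWAT than in NWAT (edgeR adjusted p = 2.23e-04). Aqp2 passed the count filter only through EWAT and SWAT, so that p-value is no independent support for a difference. These 3 genes were chosen after their values were seen. Krt19 had 58 and 59 counts in the SWAT libraries but 2.52 and 2.1 FPKM, so that the deposited FPKM per 100 counts was 4.34 and 3.56, against 3.61 to 3.96 in the EWAT and NWAT libraries and 1.57 to 1.62 for Ezr in all 6.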
